A study of Rattus norvegicus with 50 samples.

Results

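Elastic fibre genes were followed in rat lung as a list of 10 genes: Eln, Lox, Loxl1, Loxl2, Fbln5, Fbln2, Fbn1, Mfap4, Mfap5 and Emilin1. A gene was taken from the array where the platform annotation names it, and no other gene, for a probe set, the group of probes that reads 1 transcript. Of the 10 genes, 7 were named this way, each by 1 probe set, and all 7 varied enough across lungs to enter the tests among 8202 genes. Fbln2, Mfap4 and Emilin1 were not named by any probe set of a single gene and were not analysed here. Probe sets that the annotation ties to several genes were left out and were not searched for members. The study asked how inhaled laser printer-emitted particles (PEPs) alter lung expression over time, and its arrays covered 50 lungs of male Sprague-Dawley rats, bought at 9 weeks of age and kept 1 to a chamber. PEP rats breathed printer emissions, particles and gases together, and Air rats breathed HEPA-filtered room air, both for 5 hours a day in like chambers. The PEP groups held 5 lungs on day 1, 5 on day 5, 5 on day 9 and 6 on day 21, and the Air groups held 5, 5, 5 and 6 on the same days. A further 4 PEP and 4 Air lungs of day 21 came from rats that carried an implanted radio telemetry system. Animals taken on day 21 were older than those taken on day 1, so that days of exposure, days in the chamber and age cannot be told apart within either chamber type. No label ties a lung to either of the repeats of the exposure or to an array plate.

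Elastic fibres give the lung its recoil. Tropoelastin, the product of Eln, is secreted mainly by fibroblasts, smooth muscle and endothelium, gathers on a scaffold of fibrillin microfibrils, and is joined into an insoluble polymer by lysyl oxidases. Fibulins guide tropoelastin onto the scaffold. Most lung elastin is laid down around birth and during alveolar growth, and in mature lung the polymer turns over very slowly.

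All values were log2 values after robust multi-array averaging (RMA), in which a difference of 1 is a doubling. Levels of different genes were not compared, since each probe set has its own brightness. The alveolar markers Sftpc, Sftpb and Ager read 13.0 to 13.2, 12.3 to 12.7 and 11.9 to 12.5 across the 50 lungs, high in each, although some label fields name blood. The array medians ran from 4.92 to 5.11. Muscle and airway markers differed widely between lungs of the same group. The mean level of 8 cardiac and pulmonary vein muscle genes ran from 3.81 to 7.78 among PEP lungs and from 3.98 to 8.38 among Air lungs of day 21, and from 3.74 to 6.80 among PEP lungs and 3.68 to 4.68 among Air lungs of day 1.

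Eln had the 39th largest variance among 14557 named genes. In PEP lungs Eln read 11.05, 10.77, 10.18, 10.59 and 10.40 on day 1, 10.57, 10.39, 10.43, 9.92 and 10.14 on day 5, and 9.92, 9.42, 10.13, 10.19 and 9.73 on day 9. The 6 PEP lungs of day 21 ran from 7.55 to 8.60 with a median of 8.27. They lay wholly below the earlier PEP lungs. Eln averaged 8.14 ± 0.39 in PEP lungs of day 21 (SD, n = 6) and 10.60 ± 0.34 in PEP lungs of day 1 (SD, n = 5), a fitted difference of -2.45 ± 0.21 (SE), 5.47-fold lower, with an adjusted p of 2.41e-11 in limma and the smallest p of all 8202 genes. In whole lung, fewer cells of a type and less RNA per cell cannot be told apart.

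In Air lungs Eln read 11.12, 11.19, 10.44, 11.03 and 10.80 on day 1, 10.61, 10.55, 10.19, 10.31 and 10.18 on day 5, and 10.51, 10.25, 10.37, 9.83 and 10.30 on day 9. On day 21 the 6 Air lungs ran from 8.27 to 9.41 with a median of 9.04. Every Air lung of day 21 was thus below every Air lung of the earlier days, and the spread was the widest of the 4 days. Eln averaged 8.92 ± 0.54 in Air lungs of day 21 (SD, n = 6) and 10.92 ± 0.30 in Air lungs of day 1 (SD, n = 5). The fitted difference was -2.02 ± 0.22 (SE), a 4.06-fold lower level, with an adjusted p of 3.25e-08 in limma and again the smallest p. Over the 10 groups the mean of Eln ran, from highest to lowest, Air day 1, PEP day 1, Air day 5, PEP day 5, Air day 9, PEP day 9, Air day 21, implanted Air day 21, implanted PEP day 21 and PEP day 21. Neighbours in that order differed by more than the larger SD of the pair in 2 places, between PEP and Air lungs of day 9 (0.37 against an SD of 0.31) and between Air lungs of day 21 and PEP lungs of day 9 (0.96 against an SD of 0.54).

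**Figure D1:**
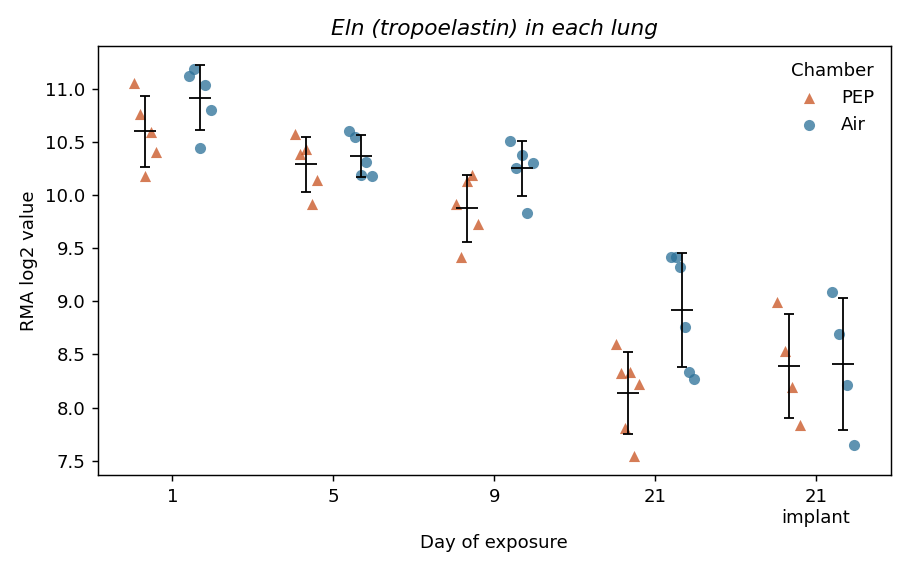
RMA log2 values of Eln (vertical axis) in each lung, by day of exposure and chamber; triangles are PEP lungs, circles Air lungs, and black bars the group mean with its SD. All 20 lungs of day 21, with or without implant, sit at 9.41 or below, and all 30 earlier lungs at 9.42 or above.

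The other members were also lower on day 21. The members were chosen with earlier results of these data known, so the shares set beside them, here and below, describe the members and do not test the list. In Air lungs, all 7 members differed across days 1, 5, 9 and 21 by limma's F test, against 18.5% of the genes tested, and all 7 were lower on day 21 than on day 1, against 11.0% of the genes tested. The median log2 difference between Air lungs of day 21 and day 1 was -0.86 over the 7 members and 0.03 over all genes tested. A halving or more was met by 3 members, Eln, Lox and Loxl1, and by 0.658% of genes. Each of the 7 members also had all 6 Air lungs of day 21 below all 5 Air lungs of day 1, as did 5.97% of genes. Against all 15 earlier Air lungs this held for 3 members, Eln, Loxl1 and Fbn1, and for 0.866% of genes.

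The lysyl oxidases come first among them, as the enzymes that cross-link elastin and collagen. Loxl1, which is needed for elastic fibre upkeep in mouse, ran from 8.21 to 8.90 with a median of 8.63 in the 6 Air lungs of day 21, and read 9.94, 10.01, 9.73, 9.63 and 9.78 in Air lungs of day 1. The groups did not overlap, and the difference of -1.25 ± 0.14 (2.37-fold lower, limma adjusted p = 3.71e-08) had the third smallest p of all genes. Lox, the first-named enzyme of the family, ran from 8.92 to 9.52 in Air lungs of day 21 with a median of 9.16, and read 10.10, 10.27, 10.23, 10.50 and 10.18 in Air lungs of day 1, a difference of -1.13 ± 0.16 (adjusted p = 3.96e-06). Loxl2, best known for cross-linking collagen IV, ran from 6.36 to 6.94 with a median of 6.81 in Air lungs of day 21 and read 7.27, 7.68, 7.18, 7.35 and 7.36 in Air lungs of day 1. Its difference of -0.66 ± 0.15 (adjusted p = 0.0013) was the smallest of the 7.

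Of the scaffold genes, Fbn1 encodes fibrillin-1, the main microfibril protein. It ran from 9.33 to 9.86 with a median of 9.77 in Air lungs of day 21 and read 10.72, 10.75, 10.38, 10.46 and 10.49 in Air lungs of day 1, a difference of -0.86 ± 0.12 (1.81-fold lower, limma adjusted p = 1.34e-06). Mfap5, a small microfibril glycoprotein, ran from 7.66 to 8.14 with a median of 7.93 in Air lungs of day 21 and read 8.33, 8.63, 8.88, 8.60 and 8.52 in Air lungs of day 1. Its difference was -0.70 ± 0.11 (adjusted p = 1.78e-05). Fbln5, the fibulin that binds tropoelastin and is needed for elastic fibre assembly in mouse, ran from 8.57 to 9.01 with a median of 8.89 in Air lungs of day 21. It read 9.71, 9.77, 9.46, 9.42 and 9.53 in Air lungs of day 1, a difference of -0.72 ± 0.13 (adjusted p = 8.24e-05).

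**Figure D2:**
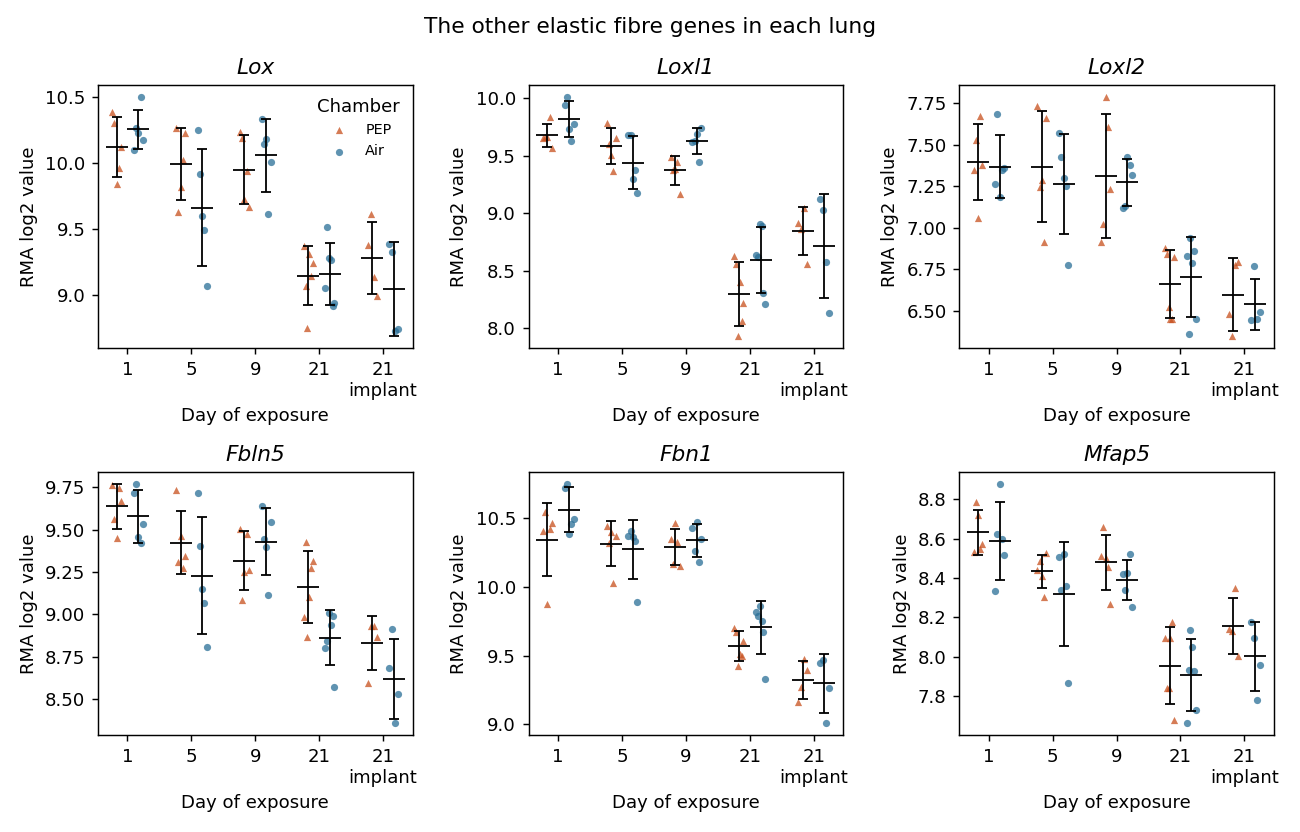
RMA log2 values of the other 6 members (vertical axes, a scale for each gene) in each lung by day and chamber; triangles are PEP lungs, circles Air lungs, and black bars the group mean with its SD. In each panel the group means of day 21 lie below those of the earlier days, and for Loxl1 and Fbn1 no lung of day 21 reaches the lowest earlier lung. Fbln5 in PEP lungs of day 21 (8.87 to 9.43) overlaps PEP lungs of day 9 (9.08 to 9.50).

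Between day 9 and day 21 all 7 members were lower in Air lungs (against 7.85% of genes), with differences from -0.50 ± 0.11 for Mfap5 to -1.34 ± 0.22 for Eln. Loxl2, at -0.55 ± 0.15 (limma adjusted p = 0.0158), lost the call without Air lung 6 of day 21 (adjusted p = 0.0543). Between day 1 and day 9 none of the 7 members passed the test in Air lungs, where 0.0122% of genes were called lower, although all 7 differences were negative (as were 41.3% of genes) and 2 of the 7 had an unadjusted p below 0.05. Eln was -0.68 ± 0.22 on day 9 relative to day 1 (limma adjusted p = 0.143). On day 5 relative to day 1, Lox alone passed in Air lungs, with -0.55 ± 0.16 (adjusted p = 0.0393), against 0.524% of genes called lower. All 7 differences were negative there, as were 54.3% of genes, with a median of -0.32 over the members and -0.02 over all genes, and 6 of the 7 had an unadjusted p below 0.05. Eln was -0.53 ± 0.22 (adjusted p = 0.204). For Lox the Air lungs of day 5 read 10.25, 9.92, 9.60, 9.49 and 9.06, and the call was lost with equal array weights (adjusted p = 0.0799). It was also lost without Air lung 3, 4 or 5 of day 5 or Air lung 1, 2, 3 or 4 of day 1, with adjusted p from 0.0575 to 0.257. Air lung 5 of day 5 was the lowest of its group in all 7 members.

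Loxl1 and Fbn1 had no lung of day 21 above any lung of days 1, 5 and 9, and the 250 bases before their start sites are shown for that reason. Promoters came from the RefSeq table on the GRCr8 build, which held 4 of the 7 members (Loxl1, Fbln5, Fbn1 and Mfap5). Of 7 motifs searched, the one to capitalise was chosen after the matches were seen, as the one that both promoters held. Both runs are written 5′ to 3′ on the strand of the gene, and capitals mark CAGACA, the core of a SMAD-binding element of TGF-beta responses, or TGTCTG, the same letters on the other strand. Loxl1 lies at chr8:67612225-67612474 (minus strand) and Fbn1 at chr3:133203391-133203640 (minus strand).
Loxl1: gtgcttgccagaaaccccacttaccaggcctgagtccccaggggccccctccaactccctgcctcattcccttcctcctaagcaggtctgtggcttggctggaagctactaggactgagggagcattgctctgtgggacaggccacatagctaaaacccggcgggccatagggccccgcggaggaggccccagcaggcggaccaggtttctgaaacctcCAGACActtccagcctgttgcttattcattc
Fbn1: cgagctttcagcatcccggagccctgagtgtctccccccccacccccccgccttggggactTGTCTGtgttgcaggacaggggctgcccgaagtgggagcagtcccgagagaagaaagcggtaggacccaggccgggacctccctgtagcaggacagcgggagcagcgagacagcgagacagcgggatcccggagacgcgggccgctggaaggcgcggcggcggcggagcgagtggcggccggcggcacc
Each of these promoters held 1 such match, Fbln5 and Mfap5 held none, and 17.25% of 33465 rat promoters of the same length held at least 1. Of the other motifs searched on both strands, the GC box GGGCGG (30.47% of promoters) was found in Fbln5, the TEAD motif CATTCC (12.06%) in Loxl1, and the E-box CANNTG (65.55%) in Fbln5 and Mfap5. The TATA box TATAAA (12.93%), the AP-1 motif TGANTCA (6.34%) and the CArG box (1.5%) were not found in these windows. Fbn1 held 24 CpG dinucleotides and a GC content of 71.2%, against medians of 5 and 51.2% over all promoters.

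The members also fell in PEP lungs. All 7 were lower on day 21 than on day 1, against 5.3% of the genes tested, and 6 of 7 differed across the 4 days by the F test, against 4.82% of genes. A halving or more was met by 2 members, Eln and Loxl1, and by 0.427% of genes. Differences between PEP lungs of day 21 and day 1 were -1.40 ± 0.14 for Loxl1 (limma adjusted p = 2.45e-10), -0.97 ± 0.16 for Lox, -0.76 ± 0.15 for Loxl2, -0.80 ± 0.11 for Fbn1 and -0.69 ± 0.11 for Mfap5. The median was -0.80 over the 7 members and 0.02 over all genes. Loxl1 ran from 7.93 to 8.63 with a median of 8.31 in PEP lungs of day 21 and read 9.65, 9.66, 9.66, 9.84 and 9.57 in PEP lungs of day 1, so that the groups were well separated. All 7 members had every PEP lung of day 21 below every PEP lung of day 1, as did 4.06% of genes. Against all 15 earlier PEP lungs it held for 6 members and 0.61% of genes, the exception being Fbln5.

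Fbln5 was the member that fell least in PEP lungs. It ran from 8.87 to 9.43 with a median of 9.19 in PEP lungs of day 21 and read 9.77, 9.56, 9.45, 9.75 and 9.67 in PEP lungs of day 1. The highest PEP lung of day 21, at 9.43, was just below the lowest of day 1, at 9.45, and the difference was -0.46 ± 0.12 (limma adjusted p = 0.0158). The call was lost without PEP lung 3 of day 21 (adjusted p = 0.0603) or without PEP lung 4 of day 1 (adjusted p = 0.0507). Across the 4 days of PEP lungs Fbln5 missed the threshold (F test adjusted p = 0.083), which it passed with no variance filter (0.0495) and with brighter genes only (0.0162), and between day 9 and day 21 it was -0.14 ± 0.13 (adjusted p = 0.783). The other 6 members were lower in PEP lungs of day 21 than of day 9, against 0.902% of genes, with Eln at -1.77 ± 0.23 and Loxl1 at -1.11 ± 0.14. Loxl2, at -0.64 ± 0.16 (adjusted p = 0.0203), lost that call without PEP lung 5 of day 21 (adjusted p = 0.0628) or PEP lung 3 (0.125) or 4 (0.0993) of day 9.

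As in Air lungs, no member passed on day 9 relative to day 1 in PEP lungs (against 0.061% of genes called lower), where all 7 differences were negative, as were 42.0% of genes, and 3 members had an unadjusted p below 0.05. Eln was -0.68 ± 0.22 (limma adjusted p = 0.188). None passed on day 5 relative to day 1, where 0.061% of genes were called lower, all 7 differences were negative, as were 45.8% of genes, and no member had an unadjusted p below 0.05. Set against each other, the change to day 21 in PEP lungs minus that in Air lungs passed the test for no gene (0.0% of genes, with 848 genes at an unadjusted p below 0.05 in limma, none a member). The interval of that difference ran from -1.05 to 0.19 for Eln and from -0.30 to 0.32 for Mfap5.

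**Figure D3:**
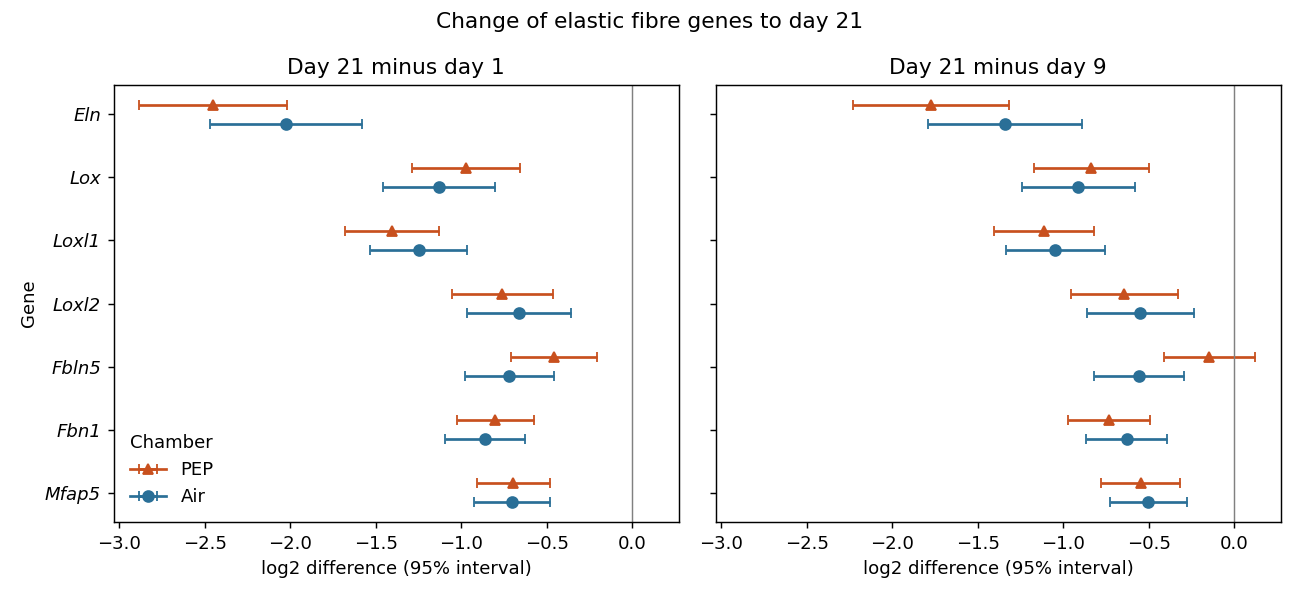
Fitted log2 differences of the 7 members (horizontal axes, with 95% intervals) for day 21 minus day 1 and day 21 minus day 9; triangles are PEP lungs and circles Air lungs. All intervals lie below 0 except that of Fbln5 in PEP lungs of day 21 minus day 9.

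Taken over both chambers and with implanted lungs, all 20 lungs of day 21 lay below all 30 lungs of days 1, 5 and 9 for 6 of the 8202 genes (0.0732%), of which 3 were members. Eln reached at most 9.41 on day 21 against at least 9.42 before, Loxl1 9.12 against 9.17, and Fbn1 9.86 against 9.88. The other 3 genes, named after their values were seen, were Col1a1, a chain of collagen I, Col4a2, a chain of basement membrane collagen IV, and the metalloproteinase Adamts12. With both chambers pooled but no implanted lung, the fitted difference of Eln was -2.24 ± 0.15, and all 7 members were lower on day 21 than on day 1, against 13.8% of genes. With implanted lungs of day 21 in place of those without implant, a check added after the data were seen, all 7 members were lower than on day 1 in PEP lungs (Eln -2.15 ± 0.24) and in Air lungs (Eln -2.54 ± 0.24), where 3.99% of genes in PEP lungs and 4.45% in Air lungs were called lower.

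PEP lungs were compared with Air lungs of the same day to ask what the printer emissions added. No member passed the test on any day, and no member had all PEP lungs of day 21 below all Air lungs of day 21, as 0.171% of genes had. On days 1, 5 and 9 no gene at all passed (537, 441 and 422 genes had an unadjusted p below 0.05 in limma), on day 21 0.219% of genes did and among implanted lungs 0.0122%. The unadjusted count on day 21 was 1171 of the 8202 genes, 3 of them members (Eln, Loxl1 and Fbln5). Eln came closest on day 21, with 7.55 to 8.60 in PEP lungs and 8.27 to 9.41 in Air lungs, and the 2 groups overlapped. Its difference was -0.79 ± 0.22 (unadjusted p = 0.00088, limma adjusted p = 0.107), with a 95% interval from -1.24 to -0.34. Eln passed when the test was kept to genes brighter than the median of all values (-0.77, adjusted p = 0.043).

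Among the implanted rats Eln read 8.99, 8.53, 8.19 and 7.84 in PEP lungs and 9.09, 8.69, 8.21 and 7.64 in Air lungs, values that nearly coincided, with a difference of 0.03 ± 0.26 and an interval from -0.50 to 0.56. Fbln5 was on the other side on day 21, with 9.16 ± 0.21 in PEP lungs and 8.86 ± 0.16 in Air lungs (SD, n = 6 each), a difference of 0.32 ± 0.13 (adjusted p = 0.248). Loxl1 differed by -0.30 ± 0.14 (adjusted p = 0.327). The other 4 members lay between -0.14 and 0.05 on day 21. Whether the PEP minus Air difference varied between the days was tested directly, and no member passed (limma F test, smallest adjusted p among members 0.695 for Fbln5, 0.0% of genes).

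**Figure D4:**
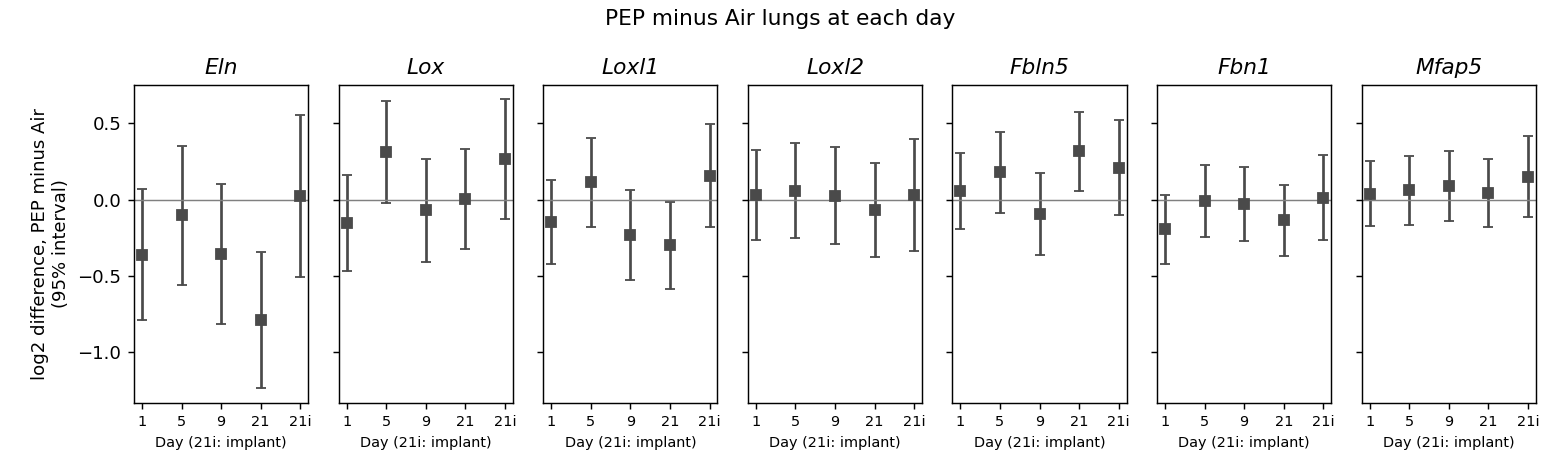
Fitted PEP minus Air log2 differences (vertical axis, with 95% intervals) of the 7 members on days 1, 5, 9 and 21 and for implanted lungs of day 21. The interval of Eln on day 21, from -1.24 to -0.34, lies farthest from 0, and no member passed after adjustment.

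The implant was compared within each chamber type. Loxl1 was higher in implanted PEP lungs, which read 8.92, 8.86, 9.04 and 8.56, than in PEP lungs without implant, which ran from 7.93 to 8.63 with a median of 8.31. The groups overlapped in 1 implanted lung, and the difference was 0.58 ± 0.15 (limma adjusted p = 0.0192), against 3.8% of genes called. That call was lost without PEP lung 3 or 5 or without implanted PEP lung 2 or 3, with adjusted p from 0.0503 to 0.0859. No member had every implanted PEP lung above every PEP lung without implant, as 3.27% of genes had. In Air lungs no member passed the same comparison, where 6.91% of genes did. Fbn1 came nearest, with 9.45, 9.47, 9.01 and 9.27 in implanted Air lungs and 9.33 to 9.86 in Air lungs without implant, a difference of -0.39 ± 0.13 (adjusted p = 0.0572). Fbn1 passed with equal array weights, no variance filter, robust moderation with a trend or brighter genes only (adjusted p from 0.0314 to 0.041) and without Air lung 6 of day 21 (0.0243) or implanted Air lung 1 (0.0412) or 2 (0.0408). The implant effect in PEP lungs minus that in Air lungs passed for no gene (0.0%). An unadjusted p below 0.05 in limma was met by 554 genes, 2 of them members, Eln (0.82 ± 0.35) and Loxl1 (0.46 ± 0.22).

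Members also varied together between lungs of the same group. After each lung's value was taken as its deviation from its group mean, all 21 pairs of members had a positive Pearson's r over the 50 lungs, with a median of 0.45, against a median of 0.00 over all pairs of genes tested. Without the 2 lungs farthest from the median of a pair's first gene, r ran from -0.06 to 0.66. It was then below 0 for Lox with Loxl2 (-0.06), Eln with Mfap5 (-0.03) and Fbln5 with Mfap5 (-0.03). Of all pairs of genes tested, 1.14% had an r above the members' median. Of the 21 pairs, 15 passed a two-sided permutation test within groups after Benjamini-Hochberg adjustment over the 21, by r and by Spearman's rho. The share of all gene pairs that would pass this test was not computed. Eln and Loxl1 were the closest pair (r = 0.72, rho = 0.70, permutation p = 2e-05 and 1e-05, adjusted p = 0.00014 and 0.000105), and r was 0.66 without the 2 lungs farthest from the median of Eln. Fbn1 followed Loxl2 (r = 0.66, rho = 0.64) and Fbln5 (r = 0.66, rho = 0.58), the first with 0.60 and the second with 0.63 without 2 such lungs. The permutation p of r was 1e-05 for both, the smallest that 100000 draws can give, with adjusted p = 0.000105. Mfap5 stood aside from Eln (r = 0.04, rho = 0.06, permutation p = 0.822 and 0.716, adjusted p = 0.822 and 0.786). The other 5 pairs that missed the threshold were Loxl2 with Eln, Lox and Mfap5, and Mfap5 with Fbln5 and Fbn1. Lungs of 1 group can share an exposure repeat or a plate, which no label gives, and within-batch values could not be had.

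**Figure D5:**
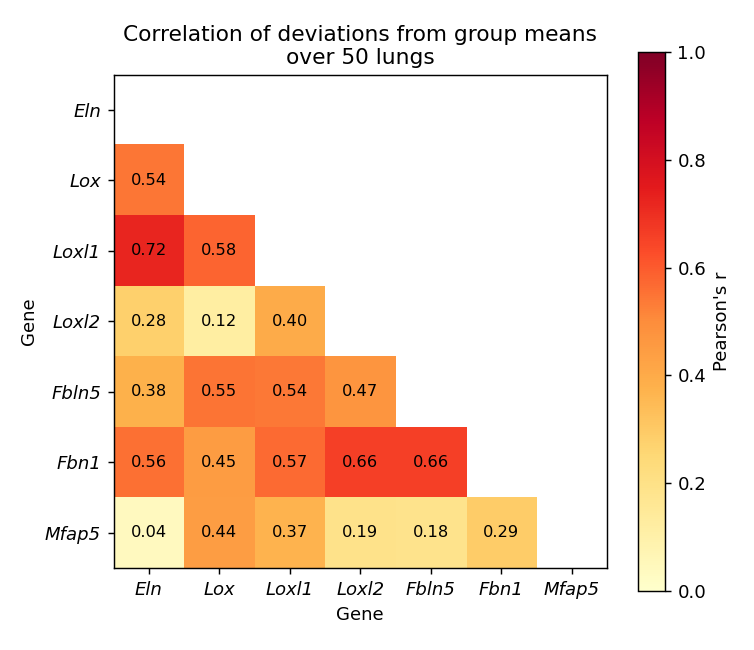
Pearson's r between members (colour and figures in the cells, both axes list the genes) over 50 lungs, each value taken as the deviation from its group mean. All 21 cells are above 0, from 0.04 for Eln with Mfap5 to 0.72 for Eln with Loxl1.

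Genes whose levels were most like Eln over the 50 lungs, days included, were Col1a1 (r = 0.94), Adamts12 (0.89), Mmp14 (0.88), Col4a2 (0.88) and Spon2 (0.87), a secreted matrix protein. Those most like the mean z-score of the 7 members were Wnt5a (0.93), a secreted Wnt ligand, Col1a1 (0.92), Ppic (0.91), Olfml3 (0.90) and Sparc (0.90), a collagen-binding glycoprotein. These values describe 50 lungs that share days and are not tests. Within groups the same measure was lower, from 0.375 (Col4a2) to 0.69 (Col1a1) with Eln, and from 0.61 (Ppic) to 0.85 (Wnt5a) with the members' mean. Spon2 was 2.05 lower on the log2 scale on day 21 than on day 1 in PEP lungs (SE 0.20) and Wnt5a 0.82 lower (SE 0.16).

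Other genes of the elastic fibre were taken from a list of 25 partners, of which 17 were named on the array and 12 varied enough to be tested. Of the 12, 4 fell in PEP lungs between day 1 and day 21 (Mfap2, Loxl3, Adamtsl2 and Bgn) and 5 fell in Air lungs (Fbn2, Mfap2, Ltbp2, Adamtsl2 and Bgn), with none higher. Fbn2 was dim, at 2.43 to 3.72 across lungs, below the lowest array median of 4.92. Of all genes tested, 5.3% were called lower in PEP lungs and 11.0% in Air lungs. The median over the 12 was -0.36 in PEP lungs, against 0.02 over all genes tested, and -0.36 in Air lungs, against 0.03. Mfap2, the microfibril glycoprotein MAGP-1, was -0.74 ± 0.16 in PEP lungs (limma adjusted p = 0.00167) and -0.81 ± 0.16 in Air lungs (adjusted p = 0.000329). Adamtsl2, a fibrillin-binding protein, was -0.86 ± 0.21 in PEP lungs and -0.94 ± 0.22 in Air lungs. Bgn, the matrix proteoglycan biglycan, was -0.42 ± 0.12 in PEP lungs and -0.74 ± 0.12 in Air lungs.

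Fibrillar collagen and its processing showed the same direction. Of 13 listed genes 8 were tested. Between day 1 and day 21, 4 of these fell in PEP lungs (against 5.3% of all genes tested) and 8 in Air lungs (against 11.0%). Col1a1 was -1.43 ± 0.15 in PEP lungs (limma adjusted p = 1.47e-09) and -1.18 ± 0.15 in Air lungs (adjusted p = 5.9e-07), and Col3a1 was -0.63 ± 0.11 in PEP lungs and -0.65 ± 0.11 in Air lungs. P4ha3, a prolyl hydroxylase subunit, was 0.02 ± 0.19 in PEP lungs and -0.83 ± 0.20 in Air lungs (PEP minus Air difference of the changes, adjusted p = 0.341).

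Of 8 tested genes of elastin degradation and its inhibitors, 2 fell in PEP lungs (Mmp2 and Mmp14) and 3 fell in Air lungs (Mmp2, Mmp14 and Timp1), with none higher. The shares called lower over all genes tested were 5.3% in PEP lungs and 11.0% in Air lungs. Mmp14, a membrane metalloproteinase that activates Mmp2, was -1.09 ± 0.15 in PEP lungs and -1.03 ± 0.15 in Air lungs. Timp3, an inhibitor of these proteases, was the only tested gene of the 4 lists called between the chambers on day 21, higher in PEP than in Air lungs by 0.50 ± 0.12 (limma adjusted p = 0.0406). Of 16 genes of TGF-beta signalling, 8 were named on the array, and only 2 of the 8 varied enough to be tested. Of these Ccn2, a matricellular target of the pathway, rose in PEP lungs between day 1 and day 21 (0.77 ± 0.19, adjusted p = 0.00682) and was 0.10 ± 0.20 in Air lungs (adjusted p = 0.768), and the changes in the chambers differed by 0.66 ± 0.27 (adjusted p = 0.362).

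Some marker genes of cell types moved with day 21 as well. Among all genes tested, 5.3% were called lower on day 21 than on day 1 in PEP lungs and 11.0% in Air lungs. In Air lungs 1725 of the 8202 genes were called in either direction, 903 of them lower. Of 9 tested fibroblast markers, 4 fell in PEP lungs, and in Air lungs 7 fell and 1, Pi16, rose (0.60, adjusted p = 0.0482). Pdgfrb, a receptor of fibroblasts and pericytes, was 0.72 lower on the log2 scale in PEP lungs and 0.84 lower in Air lungs. Of 7 tested smooth muscle markers, 0 changed in PEP lungs and 2 fell in Air lungs (Synpo2 and Hhip). Of 8 cardiac and pulmonary vein muscle genes, 0 passed in PEP lungs (median difference 0.91) and 7 rose in Air lungs (median 3.13). Of 6 airway epithelial genes, 0 passed in PEP lungs (median 0.38) and 6 rose in Air lungs (median 1.76). All 7 elastic fibre members were lower in both chambers. Erythroid genes fell in both (3 of 4 tested in each), and 1 of 5 proliferation genes fell in each. The mean level of 11 fibroblast markers ran from 7.65 to 7.97 in PEP lungs and 7.64 to 7.98 in Air lungs of day 21, and from 8.21 to 8.43 in PEP lungs and 8.19 to 8.35 in Air lungs of day 1. The part of these cell types in the members' fall was not tested.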

How the data were processed

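Per the labels, total RNA of each lung was run on Affymetrix Rat Gene 2.1 ST arrays, and the authors deposited log2 values made by RMA with the oligo package under R 3.4 (the submitters' processing notes). RMA corrects the background, equalises the distributions of all arrays and summarises probes, so a change shared by most genes is lost; signal over background limits dim genes. Extraction kits differ between the labels and the methods. The annotation names 1 gene for 14824 of 36685 probe sets, several for 829 and none for 21032. The brightest probe set stood for each of 14557 genes, and 8202 with a variance of at least 0.05 were tested. One model of the 10 title groups was fitted with limma 3.58.1 (R 4.3.3), with array weights and empirical Bayes moderation, after the study's weighted models. Genes were called at a Benjamini-Hochberg adjusted p below 0.05 within each comparison; the fit was first tested on simulated data. Replicates are separate rats as numbered in the titles; no 2 columns were identical. Correlations used permutations within groups in Python 3.11.15 with numpy 2.4.6. The members and lists were chosen with earlier results of these data known. By rule, named genes were every member, partner genes called in a described comparison, up to 4 of the brightest genes of each marker list, and the 5 genes most like Eln and the 5 most like the members' mean; genes of other lists, and dimmer markers, were named after their values were seen. Alternatives varied weights, filters, scaling, probe sets, moderation, replicate block and lungs.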

Additional observations from a re-analysis of the deposited data

Results flagged for a closer look

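Within a group of 4 to 6 lungs, a value was picked out where its gap to the nearest lung took up more of the group's range than Dixon's test allows. Of 70 combinations of member and group, 5 were picked out, and chance gives about 3.5. In Air lungs of day 5, lung 5 was far below its group in Fbn1 (9.8901, nearest 10.33) and in Mfap5 (7.8659, nearest 8.34). Fbn1 was also low in Air lung 6 of day 21 (9.3311, nearest 9.67) and in PEP lung 3 of day 1 (9.8752, nearest 10.41). Loxl2 was high in implanted Air lung 2 of day 21 (6.7675, nearest 6.49). After adjustment, no member's effect was found to differ between PEP and Air lungs or between implanted lungs and the rest by a test of the difference.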

How the results depend on the processing

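The fall of all 7 members between day 1 and day 21 passed in Air lungs, and in both chambers together, under every alternative run. In PEP lungs it passed for 7 members in all alternatives except the fits that left out 1 lung, which gave 6 to 7. Of 3440 values of single members under alternatives, 3403 kept their side of the threshold, 13 passed only there and 24 passed only in the main fit. Of the 2670 that are differences, 72 changed sign, 0 of them called in either fit.

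The count of members called on day 5 relative to day 1 in Air lungs was 1, and 0 with equal array weights, with no variance filter and with all probe sets; it ran from 0 to 2 without 1 lung. For the implant in Air lungs it was 0, and 1 with equal weights, no variance filter, robust moderation with a trend, brighter genes only, or the replicate number as a block; it ran from 0 to 1 without 1 lung. For the implant in PEP lungs it was 1, 0 with the replicate block, and 0 to 1 without 1 lung. For PEP minus Air lungs of day 21 it was 0, and 1 (Eln) with brighter genes only (adjusted p = 0.043) or with the replicate block (adjusted p = 0.0463). Without 1 lung, Air lungs of day 21 minus day 9 gave 6 to 7 members (6 without lung 6 of day 21) and PEP lungs 5 to 6; with implanted lungs in their place these were 6 and 5. The median r between members was 0.8202 when values were not centred on groups. The cause of these shifts was not tested.

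Same-numbered lungs were compared between chambers on the same day, and between day 1 and day 21 of the same chamber type. Of 35 such pairs, 6 had deviations correlated above 0.1 (range -0.36 to 0.29), and replicate numbers were not taken to pair lungs. Of these 6, 4 were PEP and Air lungs of day 21. There all 6 pairs were above 0 (0.05 to 0.29) and 6 of 12 lungs correlated best with their own number. For Air lungs of day 1 and day 21, 6 of 10 lungs did. The count due by chance was not computed, and whether the numbers mark something shared was not tested. The block lost the calls of Loxl2 in PEP lungs of day 21 minus day 9 (adjusted p = 0.0656) and of Loxl1 for the implant in PEP lungs (0.0708).

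Counts of genes called moved by over 1.5 times as follows. With no variance filter, and with all probe sets, more features enter the test: Air lungs across days 2564 and 2520 (1516 in the main fit), PEP lungs across days 745 and 682 (395), Air lungs of day 21 minus day 1 2798 and 2866 (1725), PEP lungs 990 and 878, both together 3855 and 4596 (2145), and the implant in Air lungs 951 and 880 (567). With no variance filter, Air lungs of day 21 minus day 9 gave 1537 (822) and the implant in PEP lungs 681 (312). With brighter genes only, PEP lungs across days gave 704, Air lungs of day 21 minus day 9 1258, PEP lungs of day 21 minus day 9 217 (104), and PEP minus Air lungs of day 21 109 (18). With lungs left out as well, PEP minus Air lungs of day 21 gave 1 to 109, day 5 minus day 1 gave 0 to 487 in Air lungs (308) and 1 to 265 in PEP lungs (11), and day 9 minus day 1 gave 0 to 143 in Air lungs (4) and 0 to 129 in PEP lungs (20). PEP lungs of day 21 minus day 9 gave 64 with the replicate block, 62 without PEP lung 4 and 69 without PEP lung 3 of day 9. The implant gave 155 in PEP lungs without implanted PEP lung 2 and 357 in Air lungs without implanted Air lung 2. Implanted lungs of day 21 gave 809 and 339 in Air lungs relative to days 1 and 9, and 289 in PEP lungs relative to day 9. Comparisons between the chambers with 0 or 1 gene called gave 0 to 4.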

Other observations

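For 5 tested mesothelial markers, the median log2 difference between day 21 and day 1 was 0.58 in PEP lungs, where 0 of 5 passed, and -0.60 in Air lungs, where 1 of 5 was lower. Between these days 5.3% of all genes tested were called lower in PEP lungs and 11.0% in Air lungs. Large vessel endothelial markers had negative differences in all 3 tested genes in both chambers, and Gja5 (-0.54) and Selp (-0.67) passed in Air lungs. Of 4 tested macrophage markers, 0 passed in PEP lungs and 2 were lower in Air lungs. Adipocyte markers did not pass in either (0 of 8). Cartilage genes of the airways were dim in all groups, with a mean between 2.91 and 3.53 on the log2 scale.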
